A study of Mus musculus with 66 samples.

Results

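The genes described are 9 claudins of the epithelial barrier (Cldn1, Cldn2, Cldn3, Cldn4, Cldn7, Cldn8, Cldn12, Cldn15 and Cldn23), of 25 claudin genes and 30452 genes in all with values in the deposited table. They were chosen by gene name, with earlier results on these transcript abundances (TPM, scaled to the library total and adjusted for transcript length) in view, so their levels are given first as a description. The 9 genes had 23 transcripts with values, and the TPM of a gene's transcripts were summed. All 9 passed the filter on low values in each comparison, except Cldn1 in mid-colon at day 14, which was not tested there.

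Bulk RNA sequencing covered 66 libraries from 19 C57Bl/6 mice, purchased at 6 weeks of age. Colitis was set off with 3% DSS (dextran sulfate sodium, which damages the gut lining), given for 6 days from day 0, so those killed at day 3 were still on it. The 4 mice of day 0 were the uninjured group, and 3 mice were killed at each of days 3, 6, 9, 14 and 20. The mucosal surface of mid-colon, rectum and anus was taken from each mouse, and squamous neo-epithelium from the 9 mice of days 9, 14 and 20. Library depth is unknown, since only abundances were deposited, and between 11268 and 13789 genes reached 1 TPM in a library. The summed level of 10 squamous markers (such as Krt5, Krt13 and Trp63) was 11844 to 22048 TPM in anus and 5.08 to 11.1 TPM in mid-colon at day 0, and 31531 to 33666 TPM in neo-epithelium at day 9. The anal libraries also held columnar markers (11 genes such as Krt20, Cdx1 and Aqp8, 2014 to 5718 TPM at day 0) and skeletal muscle markers (832 to 9319 TPM), so markers of several tissues are present in them. In such bulk samples, fewer cells of a type and less RNA per cell cannot be told apart.

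Claudins are small membrane proteins that cross the membrane several times and meet those of the neighbouring cell to form the strands of the tight junction. Some form pores: claudin-2 and claudin-15 let small cations through, claudin-2 also water, and both are known from the crypts of the gut. Others mainly seal, such as claudin-1, without which the epidermis loses water, claudin-3, claudin-4 and claudin-8, while claudin-7 sits largely along the sides of the cell, where it binds EpCAM. Claudin-12 has been tied to calcium permeability, and claudin-23 is less studied.

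The sequences just upstream of the start sites are shown for the 2 pore-forming genes, both called lower in mid-colon and rectum at day 6, and for the 2 genes that were higher in anus than in rectum. Each is the 250 bases before the RefSeq start site (GRCm38), 5′ to 3′ on the gene's strand. Capitals mark matches to 7 motifs searched on both strands: those of AP-1, spelled TGANTCA, of the grainyhead factors, spelled AACNNGTT, and of the intestinal CDX factors, spelled TTTATG. The other 4 were a half-site of the HNF1 factors, which was searched as GTTAAT, the motif of the GATA family, which was searched as AGATAA, that of the STAT family, which was searched as TTCNNNGAA, and that of the TEAD family, which was searched as GGAATG.
Cldn2, chrX:139800558-139800807, plus strand: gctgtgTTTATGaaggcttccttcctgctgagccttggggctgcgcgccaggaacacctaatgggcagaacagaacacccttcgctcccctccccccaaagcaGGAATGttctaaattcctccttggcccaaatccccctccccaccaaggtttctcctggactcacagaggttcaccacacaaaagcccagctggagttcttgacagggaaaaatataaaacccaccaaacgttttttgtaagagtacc
Cldn15, chr5:136967619-136967868, plus strand: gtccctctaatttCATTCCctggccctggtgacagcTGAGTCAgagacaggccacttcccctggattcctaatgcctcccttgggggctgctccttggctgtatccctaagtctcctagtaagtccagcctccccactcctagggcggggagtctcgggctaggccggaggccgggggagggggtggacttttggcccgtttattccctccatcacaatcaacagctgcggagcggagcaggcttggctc
Cldn1, chr16:26371840-26372089, minus strand: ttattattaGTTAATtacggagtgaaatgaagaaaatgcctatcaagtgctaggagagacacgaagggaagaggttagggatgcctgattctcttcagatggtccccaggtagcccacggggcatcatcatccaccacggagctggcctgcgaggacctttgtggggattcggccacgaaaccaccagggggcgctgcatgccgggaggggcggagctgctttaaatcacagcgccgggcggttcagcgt
Cldn4, chr5:134946935-134947184, minus strand: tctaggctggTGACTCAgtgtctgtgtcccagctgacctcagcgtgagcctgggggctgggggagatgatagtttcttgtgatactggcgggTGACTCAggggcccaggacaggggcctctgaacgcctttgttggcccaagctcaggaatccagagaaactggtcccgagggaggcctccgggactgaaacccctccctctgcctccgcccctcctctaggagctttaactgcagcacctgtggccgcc
The Cldn2 window held 1 CDX match, at position -244 from the start site, and 1 TEAD match. The Cldn15 window held 1 AP-1 and 1 TEAD match, and the Cldn4 window 2 AP-1 matches, at positions -240 and -158. The only match in the Cldn1 window was an HNF1 half-site. Of 32851 RefSeq windows of the same length, 10.8% held the CDX letters, 12.6% the TEAD letters, 6.75% the AP-1 letters and 6.43% the HNF1 half-site, so single matches are common. Windows were used for 7 of the 9 genes, all but Cldn8 and Cldn23. In the other 3, Cldn3 had no match, Cldn7 had 1 TEAD match and Cldn12 had 1 STAT match.

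The genes lie on 5 chromosomes (GRCm38, GENCODE M21). Cldn3 (chr5:134986214-134987472, plus strand) and Cldn4 (chr5:134945119-134946934, minus strand) are neighbours on chromosome 5, which also carries Cldn12 (chr5:5489537-5514958) and Cldn15 (chr5:136966616-136975858). Cldn1 (chr16:26356642-26371841) and Cldn8 (chr16:88560828-88563183) are on chromosome 16, Cldn2 (chrX:139800828-139811386) is on X, Cldn7 (chr11:69964779-69967885) is on 11 and Cldn23 (chr8:35824712-35826559) is on 8. Across the 21 groups of section and day, the mean of Cldn3 was highest in rectum at day 3 (449.8 TPM) and that of Cldn4 in neo-epithelium at day 14 (230.5 TPM).

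In uninjured colon, 2 genes made up most of the claudin RNA. Cldn7 gave 53.5% and Cldn3 32.4% of the summed TPM of the 9 genes in mid-colon at day 0, and 52.8% and 32.0% in rectum. TPM is adjusted for transcript length, so these shares compare genes. Cldn7 was 793, 698, 718 and 483 TPM in the mid-colon of mice 1 to 4, and 877, 699, 739 and 637 TPM in their rectum. The pore-forming Cldn2 and Cldn15 were far lower, at 20.9, 22.2, 26.3 and 12.8 TPM and 9.30, 9.42, 11.1 and 5.18 TPM in mid-colon. Cldn1 had the lowest values of the 9 there, at 0.293, 0.958, 0.882 and 1.09 TPM. Cldn4, Cldn8, Cldn12 and Cldn23 lay between, with group means from 23.7 TPM (Cldn23) to 47.3 TPM (Cldn8) in mid-colon.

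**Figure D1:**
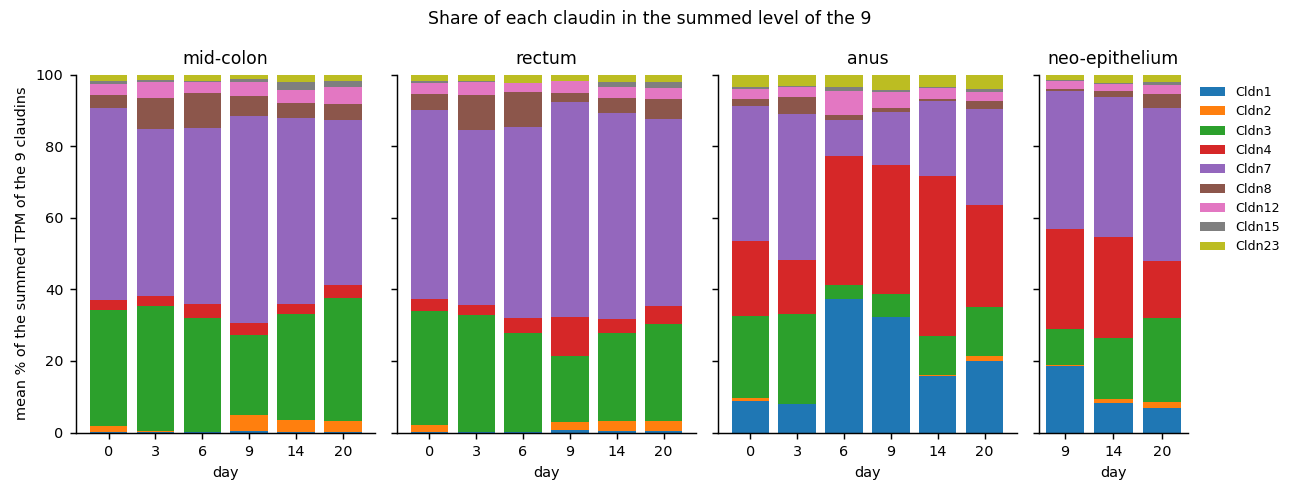
Mean share of each claudin in the summed TPM of the 9 genes (y axis, percent) by day (x axis) in the 4 sections; bars are means over 3 mice, or 4 at day 0. Cldn7 and Cldn3 fill most of the mid-colon and rectum bars, whereas Cldn1 (37.3%) and Cldn4 (36.1%) are the largest shares in anus at day 6.

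Rectum and mid-colon at day 0 did not differ in any of the 9 claudins at an adjusted p under 0.05 (limma, Benjamini-Hochberg over all genes tested), where 1.79% of all genes passed. At an unadjusted p under 0.05 there were 2, Cldn1 and Cldn8. Cldn1 was 1.53, 2.20, 1.97 and 2.77 TPM in rectum, above every mid-colon value of those mice. Its log2 difference of 0.80 passed when each mouse was entered as a replicate block (limma adjusted p = 0.0253). Without the block the limma adjusted p was 0.0609, and it was from 0.102 to 0.269 with 1 mouse left out. The median log2 difference of all genes was 0.21 in this comparison, and 0.06 with median-of-ratios scaling.

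Anus and rectum at day 0 differed in all 9 genes, in a comparison where 60.3% of all genes passed. Cldn1 and Cldn4 were higher in anus, and the other 7 were lower. Cldn1 was 34.7, 36.8, 42.0 and 36.1 TPM in anus, with no overlap with rectum (log2 difference 3.63 ± 0.16 SE, limma adjusted p = 1.20e-07). Cldn4 was 105, 94.7, 81.0 and 79.6 TPM in anus against 67.5, 49.4, 39.3 and 27.9 TPM in rectum (log2 difference 1.01 ± 0.24 SE, limma adjusted p = 0.00439). Among the lower genes, Cldn8 had the largest log2 difference: it was 6.25, 6.09, 6.55 and 21.2 TPM in anus against 72.0, 58.9, 57.4 and 58.2 TPM in rectum (log2 difference -2.69 ± 0.34 SE, limma adjusted p = 0.000107). Cldn2 was 1.33, 3.85, 2.62 and 11.1 TPM in anus against 24.6, 25.1, 26.9 and 25.5 TPM in rectum (log2 difference -2.49 ± 0.41 SE, limma adjusted p = 0.000553). The anus of mouse 4 held the most Cldn2, Cldn3, Cldn7, Cldn8, Cldn12 and Cldn15 of the 4, and also the most columnar marker RNA (5718 TPM against 2014 to 3121 TPM in the other 3); the part of that in the anal values was not tested. Cldn23 differed least (log2 difference -0.61, limma adjusted p = 0.00908), and its call was lost without mouse 2 (adjusted p = 0.0542), without mouse 3 (0.0711) and with median-of-ratios scaling (0.115).

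**Figure D2:**
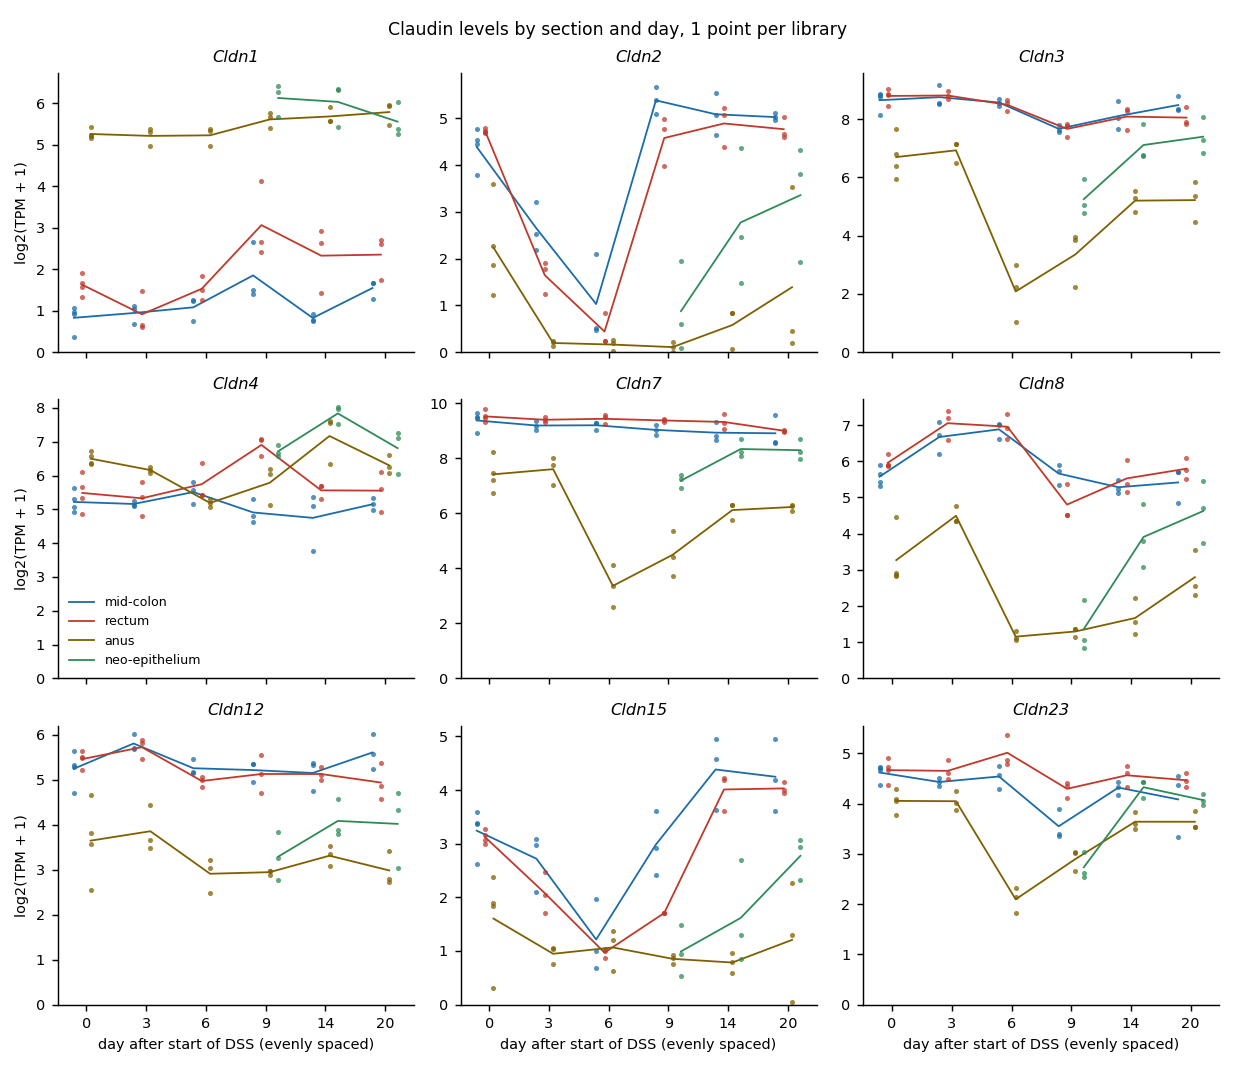
Level of each claudin as log2(TPM + 1) (y axis) by day after the start of DSS (x axis, days evenly spaced), 1 point per library and lines through the group means, coloured by section. Cldn2 and Cldn15 are low at day 6 in mid-colon and rectum, and Cldn1 stays higher in anus and neo-epithelium than in the colon.

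During DSS the pore-forming claudins fell in the colon. In rectum Cldn2 went from 24.6, 25.1, 26.9 and 25.5 TPM at day 0 to 1.38, 2.74 and 2.44 TPM at day 3; this fall was known when the genes were chosen, so it is given without a test. At day 6 rectal Cldn2 was 0.795, 0.185 and 0.177 TPM, under every value of days 0 and 3 (log2 difference -4.29 ± 0.17 SE, limma adjusted p = 6.39e-06). In that fit it passed the filter on low values only through day 0. Those day 0 libraries also gave the known fall, so this call is no independent support. Mid-colon moved the same way, from 20.9, 22.2, 26.3 and 12.8 TPM at day 0 to 3.58, 8.31 and 4.76 TPM at day 3 (log2 difference -1.74 ± 0.29 SE, limma adjusted p = 0.0473) and 3.29, 0.384 and 0.433 TPM at day 6 (log2 difference -3.36 ± 0.40 SE, limma adjusted p = 0.00122). The groups did not overlap at either day. Cldn15 fell in rectum from 7.35, 7.91, 8.70 and 6.96 TPM to 3.12, 2.27 and 4.58 TPM at day 3 (log2 difference -1.04 ± 0.18 SE, limma adjusted p = 0.00963) and 1.00, 0.819 and 1.06 TPM at day 6 (log2 difference -2.15 ± 0.13 SE, limma adjusted p = 3.10e-05). In mid-colon Cldn15 fell by day 6, to 2.90, 0.609 and 0.989 TPM (log2 difference -2.03 ± 0.33 SE, limma adjusted p = 0.00555), and the 2 groups overlapped at day 3 (log2 difference -0.52, limma adjusted p = 0.56). The day 3 call of Cldn2 in mid-colon was lost without any 1 of day 0 mice 1, 2 and 3 and day 3 mice 5, 6 and 7 (adjusted p from 0.0584 to 0.157), with a pseudocount of 0.1 TPM (0.053) and with no filter on low values (0.174).

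Of the 5 crypt base and cycling markers (Lgr5, Axin2, Ascl2, Mki67 and Top2a), 3 passed the filter in rectum at days 3 and 6, and all 3 were called lower on both days. Their summed level in rectum was 43.3 to 52.4 TPM at day 0, 4.80 to 12.4 TPM at day 3, 5.57 to 32.4 TPM at day 6 and 161 to 219 TPM at day 9, and none was listed at 0 in a whole group. In mid-colon it was 15.6 to 38.0, 6.35 to 19.7, 2.43 to 20.4 and 153 to 327 TPM on the same days, and at day 3 none of the 3 tested passed there. The summed level of 8 pan-epithelial markers such as Epcam and Cdh1 was 1956 to 2291 TPM at day 0 and 2070.2 to 2333 TPM at day 3 in rectum. The mean log2 level of these 8 markers was lower at day 6 than at day 0 in both sections. In rectum, Cldn7 minus that mean was 2.75 at day 0 and 3.07 at day 6, while Cldn7 itself changed by -0.09 (log2). In mid-colon it was 2.73 and 2.88, and Cldn7 changed by -0.18. The part of the crypt or pan-epithelial markers' change in the claudin values was not tested.

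Cldn8, a sealing claudin of the distal colon, went the other way during DSS. In rectum it rose from 72.0, 58.9, 57.4 and 58.2 TPM to 166, 146 and 94.8 TPM at day 3 (log2 difference 1.09 ± 0.18 SE, limma adjusted p = 0.00771) and 158, 121 and 98.0 TPM at day 6 (log2 difference 1.00 ± 0.16 SE, limma adjusted p = 0.00219). In mid-colon it was 59.0, 49.5, 41.9 and 38.7 TPM at day 0, 135, 106 and 72.2 TPM at day 3 (log2 difference 1.10, limma adjusted p = 0.0971) and 130.1, 96.6 and 128 TPM at day 6 (log2 difference 1.31 ± 0.18 SE, limma adjusted p = 0.00245). All 12 treated libraries of these 2 sections were above all 8 day 0 libraries of their own section. Cldn12 was the only other member called in the colon at days 3 and 6, lower in rectum at day 6 (log2 difference -0.49, limma adjusted p = 0.0114); its call was lost with median-of-ratios scaling (log2 difference -0.25, adjusted p = 0.13).

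By count, 1 of the 9 claudins passed in mid-colon at day 3 (lower) and 3 at day 6 (1 higher, 2 lower), where 0.375% and 14.9% of all genes passed. Leaving out 1 library moved the number of all genes called from 45 to between 7 and 71 at day 3, and from 1785 to between 596 and 5248 at day 6. In rectum, beside the known fall of Cldn2, 1 claudin was called higher and 1 lower at day 3, and 4 passed at day 6 (1 higher, 3 lower), where 6.62% and 48.7% of all genes passed. The rectal share at day 6 is thus near that of all genes, and it holds Cldn2, which passed the filter there only through day 0. Cldn1, Cldn3, Cldn4, Cldn7 and Cldn23 passed at neither day in either section in the main fits. Cldn23 passed as higher in rectum at day 6 with median-of-ratios scaling (log2 difference 0.59, limma adjusted p = 0.037). Cldn1 passed as lower in rectum at day 3 when mouse 7 was left out (limma adjusted p = 0.0183). Without day 0 mouse 4, Cldn3 passed as lower at day 6 in rectum (limma adjusted p = 0.0288) and Cldn7 in mid-colon (0.0395). Cldn7 was 606, 721 and 751 TPM in rectum at day 6.

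Whether rectum responded differently from mid-colon was tested as an interaction. At days 3 and 6 no gene passed, claudin or other (limma, 0% and 0% of all genes, with 971 and 730 at an unadjusted p under 0.05). Both sections came from the same mice, and with a replicate block for the mouse 3 genes passed at day 3 and 76 at day 6, with no claudin of the 9 among them. Without the block, 2 claudins (Cldn1 and Cldn2) had an unadjusted p under 0.05 at day 3, and 0 at day 6. The rectal fall of Cldn2 at day 3 was known when the genes were chosen, so its place in that count is no support. For Cldn2 at day 3 the change was -3.08 in rectum and -1.74 in mid-colon on the log2 scale.

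**Figure D3:**
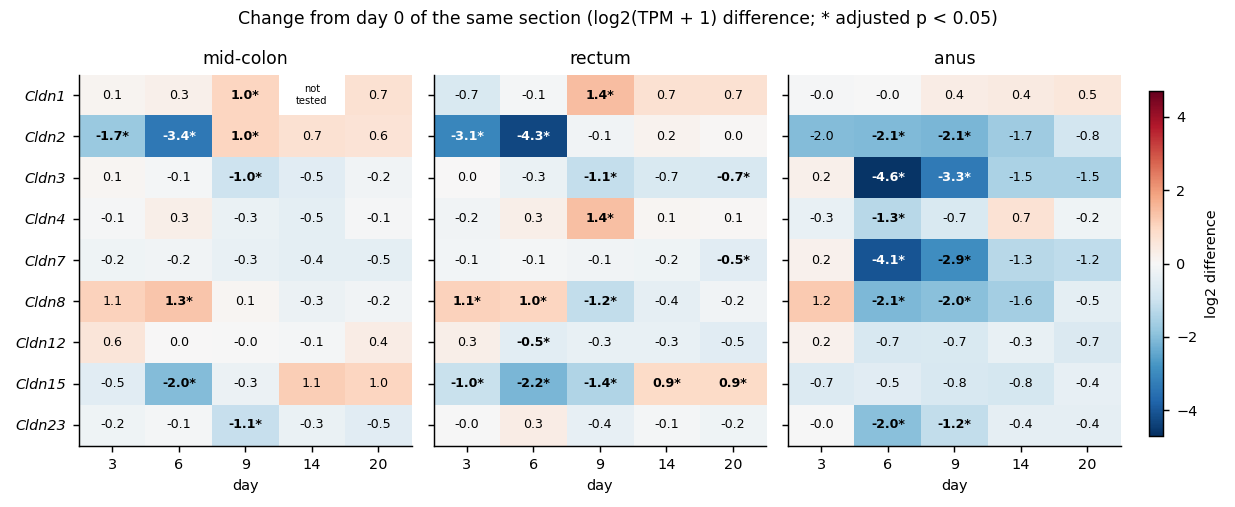
Difference from day 0 of the same section in log2(TPM + 1) for each claudin (rows) and day (columns) in mid-colon, rectum and anus; red is higher, blue is lower, and an asterisk marks a limma adjusted p under 0.05. At day 6 the Cldn2 and Cldn15 cells of mid-colon and rectum are blue and the Cldn8 cells red, each with an asterisk, and the anus at day 6 has 6 blue cells with asterisks. The asterisk of Cldn2 in rectum at day 3 marks the fall known when the genes were chosen, so it does not count as a test.

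At day 9, which followed the end of DSS, the colon had other calls. Cldn2 was 30.6, 14.9 and 26.3 TPM in rectum (log2 difference -0.15, limma adjusted p = 0.591) and 40.9, 33.0 and 50.3 TPM in mid-colon, where every mouse exceeded day 0 (log2 difference 1.00 ± 0.25 SE, limma adjusted p = 0.00816). Cldn15 stayed low in rectum, at 2.27, 2.24 and 2.28 TPM (log2 difference -1.41 ± 0.13 SE, limma adjusted p = 4.62e-05), but was 4.35, 6.55 and 11.3 TPM in mid-colon (log2 difference -0.26, limma adjusted p = 0.536). Cldn8 in rectum was 40.5, 21.8 and 22.1 TPM, below its day 0 values (log2 difference -1.16 ± 0.21 SE, limma adjusted p = 0.00194). Cldn3 fell in both sections, to 215, 167 and 228 TPM in rectum (log2 difference -1.13 ± 0.16 SE, limma adjusted p = 0.000457) and 189, 220.4 and 199 TPM in mid-colon (log2 difference -0.98 ± 0.19 SE, limma adjusted p = 0.00192). Cldn23 fell in mid-colon, to 9.23, 13.9 and 9.51 TPM (log2 difference -1.07 ± 0.19 SE, limma adjusted p = 0.00152). With median-of-ratios scaling Cldn12 and Cldn23 also passed as lower in rectum (adjusted p = 0.0393 and 0.0241) and Cldn7 in mid-colon (0.0379). The columnar markers were lower in the same groups: they summed to 15686 to 18906 TPM in rectum at day 0 and 7781 to 9100.2 TPM at day 9 (8 of 11 called lower, 3 higher), and to 16227 to 19050.3 and 8109.6 to 10275 TPM in mid-colon (6 of 11 called lower). Their part in the claudin values was not tested.

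The 2 claudins that were higher in anus than in rectum at day 0 rose in rectum at day 9. Cldn4 in rectum went from 67.5, 49.4, 39.3 and 27.9 TPM at day 0 to 94.1, 135 and 133 TPM (log2 difference 1.42 ± 0.27 SE, limma adjusted p = 0.00238), while mid-colon was 26.7, 38.8 and 23.6 TPM (log2 difference -0.31, limma adjusted p = 0.295). Cldn1 was 16.6, 4.31 and 5.26 TPM in rectum (log2 difference 1.44 ± 0.38 SE, limma adjusted p = 0.0118) and 5.29, 1.65 and 1.82 TPM in mid-colon (log2 difference 1.02 ± 0.31 SE, limma adjusted p = 0.0221); mouse 11 was highest in both. The mid-colon call of Cldn1 was lost without day 0 mouse 1 (adjusted p = 0.0554), without day 9 mouse 11 (0.0666) and with no filter on low values (0.0697). In all, 5 claudins passed in rectum (2 higher, 3 lower) and 4 in mid-colon (2 higher, 2 lower), where 53.5% and 43.4% of all genes passed, so neither count stands apart from the background.

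Rectum and mid-colon responded differently at day 9 in 2 claudins, where 6.55% of all genes passed the interaction. The response of Cldn4 was higher in rectum (difference of the log2 changes 1.73 ± 0.38, SE, limma adjusted p = 0.0122) and that of Cldn8 lower (-1.24 ± 0.31, limma adjusted p = 0.0244). Without day 9 mouse 13 neither passed (adjusted p = 0.12 and 0.185), and Cldn8 also failed without day 0 mouse 2, 3 or 4 (0.063 to 0.0797). For Cldn2 the difference was -1.15 (limma adjusted p = 0.0687), and the adjusted p was 0.026 in the fit with a replicate block. Neutrophil markers (5 genes such as S100a8 and Cxcr2, of which all 5 passed as higher in both sections) summed to 0.797 to 5.89 TPM in rectum at day 0 and 11063 to 13072 TPM at day 9, against 469.7 to 2217 TPM in mid-colon at day 9. Squamous markers in rectum summed to 15.2 to 157 TPM at day 0 and 108 to 757 TPM at day 9. Their part in the claudin values was not tested.

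In recovery, Cldn15 was the only claudin called above its day 0 level in rectum. In rectum it was 11.2, 17.8 and 17.2 TPM at day 14 (log2 difference 0.89 ± 0.17 SE, limma adjusted p = 0.0183) and 15.0, 14.3 and 16.8 TPM at day 20 (log2 difference 0.91 ± 0.13 SE, limma adjusted p = 0.0152), all above the day 0 values. In mid-colon it was 11.3, 30.0 and 22.8 TPM at day 14 (log2 difference 1.14, limma adjusted p = 0.0984) and 17.1, 29.9 and 11.3 TPM at day 20 (log2 difference 1.01, limma adjusted p = 0.13), again with no overlap with day 0. Cldn3 and Cldn7 were lower in rectum at day 20: Cldn3 was 238, 227 and 342 TPM (log2 difference -0.74 ± 0.18 SE, limma adjusted p = 0.0471) and Cldn7 was 500.4, 511 and 519.9 TPM (log2 difference -0.52 ± 0.12 SE, limma adjusted p = 0.0404). Cldn2 was 31.6, 23.3 and 24.6 TPM, around its day 0 level.

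At day 14, 1 claudin passed in rectum and 0 of 8 tested in mid-colon, where 15.8% and 4.36% of all genes passed; leaving out 1 library moved those all-gene counts from 2017 to between 386 and 5165, and from 529 to between 62 and 1365. At day 20 the counts were 3 in rectum (1 higher, 2 lower) and 0 in mid-colon, where 7.68% and 1.56% passed (973 and 189 genes, or 52 to 2873 and 31 to 1200 with 1 library left out). At an unadjusted p under 0.05, mid-colon had 2 at day 14 (Cldn2 and Cldn15) and 3 at day 20 (those and Cldn1). With median-of-ratios scaling both of the day 14 genes passed in mid-colon, as did Cldn2 at day 20. Cldn15 was lost at day 14 without day 0 mouse 1 or 2 or day 14 mouse 16 (adjusted p from 0.0558 to 0.0762) and at day 20 without day 0 mouse 1, 2 or 3 (0.0538 to 0.0675). Cldn3 and Cldn7 at day 20 were lost without any 1 mouse other than mouse 19 (0.0529 to 0.131) and with no filter on low values (0.0971 and 0.0784), and without day 14 mouse 14, 6 claudins passed in rectum at day 14.

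In anus at day 6, 6 claudins fell, among them the abundant Cldn3 and Cldn7, and none rose. Cldn3, a sealing claudin, went from 83.0, 109, 60.9 and 201 TPM at day 0 to 6.94, 1.04 and 3.71 TPM at day 6 (log2 difference -4.61 ± 0.51 SE, limma adjusted p = 0.000875). Cldn7 went from 146, 177, 106 and 302 TPM to 16.4, 5.09 and 9.23 TPM (log2 difference -4.05 ± 0.42 SE, limma adjusted p = 0.000679). Cldn8, at 1.46, 1.16 and 1.07 TPM, fell (log2 difference -2.12 ± 0.40 SE, limma adjusted p = 0.0104), where it had risen in the colon at that day. Cldn23 fell from 18.6, 15.7, 12.7 and 15.9 TPM to 3.43, 3.98 and 2.53 TPM (log2 difference -1.96 ± 0.21 SE, limma adjusted p = 0.000796), and Cldn4 from 105, 94.7, 81.0 and 79.6 TPM to 35.3, 32.6 and 38.8 TPM (log2 difference -1.31 ± 0.16 SE, limma adjusted p = 0.0013). Cldn1 was 39.5, 40.4 and 30.4 TPM (log2 difference -0.03, limma adjusted p = 0.928). Cldn2, already low, was 0.152, 0.0145 and 0.200 TPM (log2 difference -2.08, limma adjusted p = 0.0232). It passed the filter on low values only through its day 0 values, so that call is no support for a fall. The call was also lost without day 0 mouse 2 or day 6 mouse 8, 9 or 10 (adjusted p from 0.0564 to 0.0892) and with no filter on low values (0.0596).

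In all, 6 of 9 passed in anus at day 6, all lower, and 5 at day 9, all lower, where 15% and 5.09% of all genes passed. Both counts hold Cldn2, which passed the filter only through day 0. The 11 columnar markers fell with the claudins: 10 of the 10 tested passed as lower at day 6, their summed level was 57.5 to 234 TPM, and Cdx2 was listed at 0 in all 3 libraries. The squamous markers summed to 18136 to 25463 TPM. The part of the columnar markers' fall in the claudin values was not tested. At day 9, Cldn3 was 14.6, 3.73 and 13.6 TPM (log2 difference -3.34, limma adjusted p = 0.00593) and Cldn7 20.4, 12.0 and 39.6 TPM (log2 difference -2.92, limma adjusted p = 0.00558), while the calls of Cldn2 (adjusted p from 0.105 to 0.14 without day 0 mouse 2 or day 9 mouse 11, 12 or 13), Cldn8 (0.0919 to 0.112 without mouse 11, 12 or 13) and Cldn23 (0.0507 and 0.0741 without mouse 11 or 12) each depended on single libraries; Cldn2 and Cldn8 were also lost with no filter (0.112 and 0.0859).

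At day 3 the anus showed no claudin call, where 0.044% of all genes passed, although Cldn8 was 26.4, 19.3 and 19.6 TPM (log2 difference 1.23, limma adjusted p = 0.821) and Cldn2 0.0986, 0.168 and 0.174 TPM (log2 difference -2.04, limma adjusted p = 0.426); both had an unadjusted p under 0.05. At days 14 and 20 again no claudin passed, where 4.27% and 1.46% of all genes did, with 5 and 3 at an unadjusted p under 0.05 (limma). Anal Cldn7 at day 20 was 76.8, 66.9 and 78.6 TPM, still below every day 0 value (log2 difference -1.19, limma adjusted p = 0.103). Cldn1 was 43.2, 61.0 and 60.5 TPM, above every day 0 value (log2 difference 0.53, limma adjusted p = 0.155). Anal Cldn4 at day 14 was 187, 80.6 and 193 TPM (log2 difference 0.67, limma adjusted p = 0.33), which overlapped day 0.

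Squamous neo-epithelium is squamous tissue sampled after injury, and its claudins are compared with those of rectum and anus of the same mice. Against rectum all 9 genes differed over days 9, 14 and 20 (2 higher, 7 lower), where 42% of all genes passed. Cldn1 in neo-epithelium had a lowest, median and highest value of 37.1, 64.5 and 84.7 TPM against 1.68, 5.20 and 16.6 TPM in rectum, higher in 9 of 9 mice (log2 difference 3.33 ± 0.27 SE, limma adjusted p = 4.37e-08). Cldn4 was 65.6, 138 and 262 TPM against 29.5, 50.8 and 135 TPM, higher in 6 of 9 mice (log2 difference 1.11 ± 0.30 SE, limma adjusted p = 0.0061). Cldn7 was 121, 271 and 415 TPM against 500.4, 622 and 785 TPM, lower in 9 of 9 mice (log2 difference -1.29 ± 0.19 SE, limma adjusted p = 4.74e-05). Cldn2 had the largest difference downward, at 0.0582, 2.84 and 19.7 TPM against 14.9, 26.3 and 36.1 TPM (log2 difference -2.41 ± 0.44 SE, limma adjusted p = 0.000292). Markers differed as well: at day 9 the columnar list summed to 1619.8 to 2835 TPM in neo-epithelium and 7781 to 9100.2 TPM in rectum (11 of 11 called lower over the 3 days), the pan-epithelial list to 692 to 859 and 1404 to 1928 TPM, and the squamous list to 31531 to 33666 and 108 to 757 TPM. Their part in the claudin values was not tested. At day 9 alone Cldn4 had a log2 difference of -0.19 (limma adjusted p = 0.503).

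Against anus, 8 of 9 were higher in neo-epithelium over days 9, 14 and 20, where 58.5% of all genes passed. At day 9 alone Cldn8 (log2 difference 0.07, limma adjusted p = 0.886) and Cldn12 (log2 difference 0.34, limma adjusted p = 0.325) did not pass. Cldn7 was 12.0, 66.9 and 78.6 TPM in anus at its lowest, median and highest, below the neo-epithelium of the same mouse in 9 of 9 (log2 difference 2.33 ± 0.19 SE, limma adjusted p = 2.57e-08). Cldn3 was 26.3, 108 and 269.8 TPM in neo-epithelium and 3.73, 27.0 and 55.8 TPM in anus, higher in 9 of 9 mice (log2 difference 1.99 ± 0.27 SE, limma adjusted p = 1.18e-05). Cldn1 did not pass (log2 difference 0.21, limma adjusted p = 0.284), with anus at 41.5, 49.7 and 61.0 TPM. The columnar marker list was higher too, with 10 of 11 passing, and its summed level over these days was from 1619.8 to 8548 TPM in neo-epithelium; its part in the claudin values was not tested. The call of Cldn15 was lost without mouse 14 or 19 (adjusted p = 0.0501 and 0.061). That of Cldn23 (log2 difference 0.32, limma adjusted p = 0.0408) was lost without any 1 of mice 14 to 19 (0.0561 to 0.131), when mice were blocked as replicates (0.0822), with no filter (0.0552) and with scaling (0.331), and at day 9 alone its log2 difference was -0.16.

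**Figure D4:**
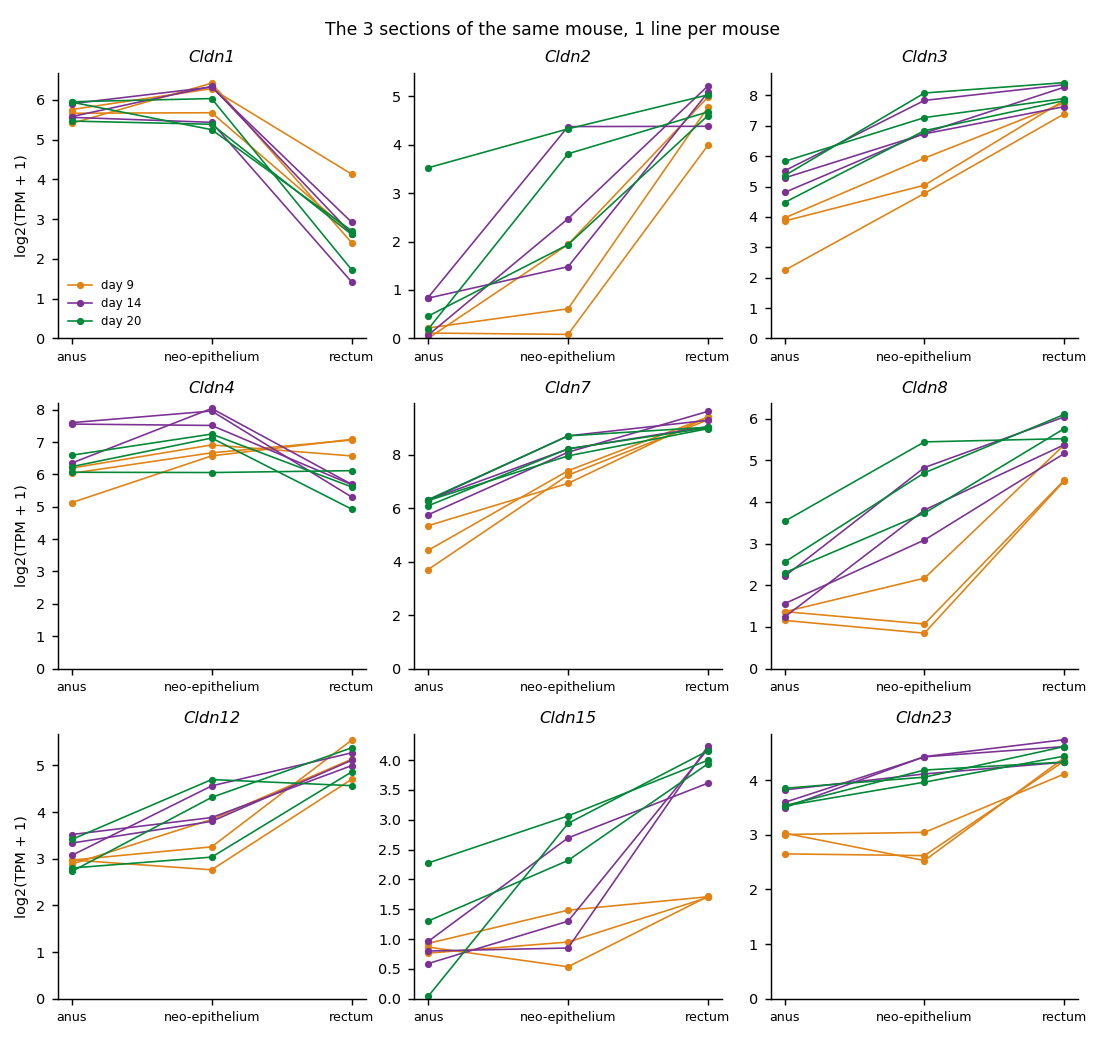
Level of each claudin as log2(TPM + 1) (y axis) in anus, neo-epithelium and rectum (x axis), 1 line per mouse, coloured by day. Cldn1 drops from neo-epithelium to rectum in all 9 mice, and Cldn3 and Cldn7 climb from anus through neo-epithelium to rectum in all 9.

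In neo-epithelium 6 of 9 claudins rose between days 9 and 20 and none fell, where 26.2% of all genes passed. Cldn8 went from 3.50, 0.802 and 1.10 TPM to 42.5, 12.3 and 25.0 TPM (log2 difference 3.26 ± 0.51 SE, limma adjusted p = 0.00753). Cldn3 went from 60.3, 26.3 and 32.0 TPM to 153, 114 and 269.8 TPM (log2 difference 2.15 ± 0.41 SE, limma adjusted p = 0.0131), and Cldn23 from 7.25, 5.15 and 4.77 TPM to 14.6, 17.2 and 15.6 TPM (log2 difference 1.34 ± 0.19 SE, limma adjusted p = 0.00546). Cldn15 rose to 7.36, 3.99 and 6.67 TPM (log2 difference 1.78 ± 0.31 SE, limma adjusted p = 0.0105). Cldn2 was 2.84, 0.0582 and 0.527 TPM at day 9 and 19.1, 2.82 and 13.0 TPM at day 20, a wide spread (log2 difference 2.48 ± 0.72 SE, limma adjusted p = 0.046). Cldn1 (40.8, 64.5 and 37.1 TPM at day 20, log2 difference -0.57, limma adjusted p = 0.175) and Cldn4 (94.2 to 119 TPM at day 9 and 65.6, 138 and 151 TPM at day 20) did not pass. Cldn4 was 182, 262 and 248 TPM at day 14, above every value of days 9 and 20, but days 14 and 20 were not compared by a test. Columnar markers in neo-epithelium summed to 1619.8 to 2835 TPM at day 9 and 5242 to 8441 TPM at day 20 (7 of 10 tested passed as higher), and neutrophil markers to 7211 to 18817 and 497 to 5624 TPM; their part was not tested. The calls of Cldn3 and Cldn7 were lost without mouse 12 or 13 (adjusted p from 0.0521 to 0.0731), and that of Cldn2 without mouse 12, 13, 17 or 19 (0.115 to 0.14), with a pseudocount of 0.1 TPM (0.0569) and with no filter (0.0939).

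Most members had 1 main transcript. Cldn1, Cldn3, Cldn4, Cldn8 and Cldn23 had a single transcript with values. Cldn7 was split between ENSMUST00000108597, with 55.1% of its rectal TPM, and ENSMUST00000018713, with 43.7%, and the split was alike in all 4 sections (55.1% to 56.5% for the first). These start at different sites, 69964779 and 69965396 on chromosome 11. Cldn15 was split between ENSMUST00000001790 (51.7% in rectum, 46.5% in mid-colon) and ENSMUST00000111093 (44.5% and 52.3%), and the promoter printed belongs to the first. Cldn12 had 7 transcripts and no main one, and its make-up differed by section. ENSMUST00000060947 held 44.8% of its TPM in rectum and 33.0% in anus, ENSMUST00000125110 38.4% and 29.1%, and ENSMUST00000115446 9.8% and 35.3%. The sharing of single-end reads between overlapping transcripts is an estimate, so gene sums were used for every comparison.

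Of the other 16 claudins, 11 had a mean under 1 TPM in every group, and 5 (Cldn5, Cldn6, Cldn10, Cldn14 and Cldn17) did not. The 9 described here held from 98.5% to 99.6% of all claudin TPM in the rectal libraries, and from 81.0% to 96.8% in the anal ones. Cldn14 went from 1.18, 0.595, 1.67 and 1.27 TPM in rectum at day 0 to 6.17, 5.69 and 8.69 TPM at day 6 (log2 difference 1.85 ± 0.21 SE, limma adjusted p = 0.000483) and 7.63, 3.84 and 9.79 TPM at day 9 (log2 difference 1.84 ± 0.29 SE, limma adjusted p = 0.000787). It also rose in mid-colon at days 6 and 9 (log2 differences 0.93 and 0.85). Cldn5, the claudin of blood vessels, was higher in mid-colon (log2 difference 1.25, limma adjusted p = 0.00921) and rectum (log2 difference 0.57, limma adjusted p = 0.00551) at day 6. Cldn17 was 19.9, 7.47, 10.5 and 4.31 TPM in anus and 0.112, 0.0941, 0.238 and 0 TPM in rectum at day 0 (log2 difference 3.20 ± 0.35 SE, limma adjusted p = 4.80e-05). It was listed at 0 in the rectum of mouse 4, and in that comparison it passed the filter only through anus, so that call is no support. Cldn17 was also lower in neo-epithelium than in anus (log2 difference -2.71, limma adjusted p = 9.60e-06). Cldn6 was 1.13, 1.76 and 1.63 TPM in neo-epithelium at day 9, and lower at day 20 (log2 difference -1.03, limma adjusted p = 0.0133). It passed the filter on low values only through its day 9 values, so that call is no support for a fall.

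The partners of the claudins in the junction were read from a list of 31 gene names, 30 of them in the table. It held the tight junction MARVEL proteins, the zonula occludens scaffolds, junctional adhesion molecules, angulins and polarity proteins. Pals1 and Mpp5 on that list name the same gene. In rectum 5 were higher and 11 lower of 29 tested at day 6, where 48.7% of all genes passed, and 3 higher and 10 lower at day 9, where 53.5% did, so these counts are near or below the background. Ocln (occludin) fell at day 6 (log2 difference -0.47, limma adjusted p = 0.0107) and at day 9 (log2 difference -1.37, limma adjusted p = 9.23e-05), and was still lower at day 20 (log2 difference -0.72, limma adjusted p = 0.035). Tjp1 (ZO-1) fell at day 6 (log2 difference -0.54, limma adjusted p = 0.00681), and Igsf5, an adhesion molecule of the junction, rose (log2 difference 0.65, limma adjusted p = 0.00794). In rectum at day 6, 4690 of all genes were called lower and 1455 higher. The median log2 difference of all genes there was -0.27, and -0.06 with median-of-ratios scaling, under which the partners were not examined. In anus at day 6, 12 fell and 0 rose of 29, where 15% of all genes passed, with Igsf5 lowest (log2 difference -3.57, limma adjusted p = 0.00118), then Marveld3 (log2 difference -2.35, limma adjusted p = 0.0023) and Ildr1, an angulin of tricellular junctions (log2 difference -2.20, limma adjusted p = 0.00348). The median log2 difference of the list was -0.64, against 0.07 for all genes. In neo-epithelium 13 rose and 2 fell of 28 between days 9 and 20, where 26.2% of all genes passed, with Cxadr among those that rose (log2 difference 1.96, limma adjusted p = 0.0102).

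Across all 66 libraries, the members fell into like and unlike pairs; the libraries share mice and span 4 sections, so these correlations are a description. Pearson's r of log2(TPM + 1) was 0.97 for Cldn3 and Cldn7, 0.90 for Cldn3 and Cldn8, 0.88 for Cldn2 and Cldn15, and -0.87 for Cldn1 and Cldn12. The 2 genes most like each member were sought among 11174 genes with a mean of at least 5 TPM in any group, predicted genes and pseudogenes left out. Nox1 (0.94) was the most like Cldn2. The genes were Gna15 and Pls3 (0.98 each) for Cldn1, and Prss32 (0.99) and Fam83e (0.98) for Cldn3. For Cldn7 they were B3gnt3 and Prss32 (0.98 each), for Cldn8 Tgoln1 (0.97) and B3gnt5 (0.96), and for Cldn12 Tnfrsf11a and Pdxdc1 (0.94 each). Lower values were found for Cldn15 (Pdia5 and Gstm3, 0.89 each), for Cldn4 (Adamtsl4 0.87, Epha2 0.86) and for Cldn23 (Ccng2 0.90, Tjp3 0.87).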

How the data were processed

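The deposited table holds 1 value per transcript and library, in TPM (transcript abundance scaled to the library total) as the authors deposited them; each is an estimate, not a count. The names kallisto, CASAVA and mm10 stand in the submitters' processing notes, with no version, and the filters used are not given in the sources used here. Libraries were stranded mRNA, single-end 75 bp, per the labels' protocols. Of 126860 rows, 37344 without values and 1318 repeats were dropped, after which each library summed to 1000000 TPM. TPM hold no read counts, so no count test was used and the precision per library is unknown. Gene sums were tested as log2(TPM + 1) with limma 3.58.1 (trend; R 4.3.3), which understates the change of low genes, with p-values adjusted by Benjamini-Hochberg over all genes tested, those with at least 1 TPM in as many libraries as the smallest group; a call is an adjusted p under 0.05. Only the groups compared entered a fit, and day was a covariate for neo-epithelium against rectum or anus. The test was checked on simulated data. Other steps used Python 3.11.15, pandas 2.3.3, numpy 2.4.6 and matplotlib 3.10.9.

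The named genes were the 9 members, other claudins with a mean of at least 1 TPM in any group, a list of junction partners, and the 2 genes most correlated with each member, of which 1 is not reported here. The members and lists were chosen with earlier results of these data known, so a p-value for them is no independent evidence. Replicates are separate mice. Mouse numbers in the labels tie the sections of 1 mouse; the mean correlation of deviations between sections of the same mouse was 0.05 for anus and rectum at day 0, 0.258 for neo-epithelium and rectum, and 0.157 for neo-epithelium and anus. Alternatives were a pseudocount of 0.1, no filter, median-of-ratios scaling, the mouse as a replicate block, single days, and leaving out each replicate.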

Additional observations from a re-analysis of the deposited data

Results flagged for a closer look

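In the 27 groups of 4 uninjured libraries (each claudin in each section at day 0), 4 held a library far from the other 3, by a gap over Dixon's critical share of the group's range; chance gives about 1 in 20 such groups. The groups come from the same 4 mice, so they are not separate chances. Cldn3 in the mid-colon of mouse 4 was the lowest, at 282 TPM, and so was Cldn23, at 19.7 TPM. That library was also the lowest of the 4 for Cldn2, Cldn7, Cldn8 and Cldn15. When it was left out, Cldn7 passed as lower in mid-colon at days 6 and 9 (limma adjusted p = 0.0395 and 0.0156). Cldn8 in the anus of mouse 4 was the highest, at 21.2 TPM, and Cldn8 in the rectum of mouse 1 was the highest, at 72.0 TPM. Columnar markers in the anus of mouse 4 summed to 5718 TPM, the highest of the 4; their part was not tested.

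Rectum and mid-colon differed in their change from day 0 to day 9, by an interaction term, for Cldn4 (1.73 on the log2 scale, limma adjusted p = 0.0122) and for Cldn8 (-1.24, limma adjusted p = 0.0244). Neither call held without day 9 mouse 13 (limma adjusted p = 0.12 and 0.185). That of Cldn8 was also lost without day 0 mouse 2, 3 or 4 (0.063 to 0.0797).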

How the results depend on the processing

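Counts of claudins that passed changed by over 1.5 times in these cases. In mid-colon at day 3 the count went from 1 to 0 with a pseudocount of 0.1 and to 0 with no filter. With median-of-ratios scaling it went from 0 to 2 in mid-colon at day 14, from 0 to 1 at day 20, and from 2 to 5 for the difference in response at day 9. With no filter it went from 3 to 1 in rectum at day 20 and from 5 to 3 in anus at day 9. With the mouse as a replicate block it went from 0 to 1 for rectum against mid-colon at day 0, and for single genes the block changed 2 other calls, Cldn23 in neo-epithelium against anus (adjusted p = 0.0822) and Cldn2 in the day 9 response (0.026); it changed no other claudin call. On single days, neo-epithelium against rectum gave 5 at day 14 and 2 at day 20, and against anus 3, 4 and 3 at days 9, 14 and 20. Direction reversed at day 9 alone for Cldn4 against rectum (-0.19) and Cldn23 against anus (-0.16). Leaving out 1 replicate gave 0 to 1 claudins in mid-colon at days 3 and 14, 0 to 6 and 0 to 4 in rectum at days 14 and 20, 2 to 6 and 0 to 2 in anus at days 9 and 14, 3 to 7 in neo-epithelium day 20 against day 9, and 0 to 3 for the day 9 response. Smaller changes were, with scaling, from 5 to 7 in rectum and 4 to 5 in mid-colon at day 9, and from 9 to 8 for anus against rectum. With no filter they were from 4 to 3 in mid-colon at day 9 and 6 to 5 in anus at day 6. The count went from 8 to 7 for neo-epithelium against anus with no filter, scaling or the block, from 6 to 5 for neo-epithelium day 20 against day 9 with no filter or a pseudocount of 0.1, from 2 to 3 for the day 9 response with the block, and from 9 to 7 against rectum at day 9 alone. The cause of these changes was not tested, other than that single days and left-out replicates leave fewer libraries.

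Counts over all genes moved by over 1.5 times with no filter in mid-colon at days 3, 6, 14 and 20 (45 to 4, 1785 to 1022, 529 to 239, 189 to 22), in rectum at days 14 and 20 (2017 to 1189, 973 to 202), in anus at days 3, 9, 14 and 20 (6 to 0, 692 to 373, 588 to 246, 201 to 59), and for rectum against mid-colon at day 0 (216 to 34). Scaling gave 129, 1128 and 513 in mid-colon at days 3, 14 and 20, 1640 in rectum at day 20, 2, 1099 and 350 in anus at days 3, 9 and 20, and 106 for rectum against mid-colon, where the block gave 349. Single days gave 3447, 2045 and 736 of 6090 against rectum, and 5799, 4381 and 2398 of 8693 against anus. The response at day 6 went from 0 to 2 with no filter and 76 with the block, at day 3 from 0 to 2 with a pseudocount of 0.1 and 3 with the block, and at day 9 from 885 to 444 with that pseudocount. With 1 library left out, the count ranged from 7 to 71, 596 to 5248, 62 to 1365 and 31 to 1200 in mid-colon at days 3, 6, 14 and 20, and from 417 to 1282 (818 with all), 386 to 5165 and 52 to 2873 in rectum at days 3, 14 and 20. In anus it ranged from 0 to 12, 876 to 2130 (2060 with all), 315 to 827, 162 to 557 and 25 to 237 at days 3, 6, 9, 14 and 20. It ranged from 1021 to 4122 (3459 with all) for neo-epithelium day 20 against day 9. With 1 mouse left out, and so its libraries of both sections, it ranged from 1 to 166 for rectum against mid-colon. On the same terms it ranged from 0 to 10, 0 to 13 and 340 to 1187 for the responses at days 3, 6 and 9. Scaling moved the median of all genes by over 0.1 (log2) in 10 of 23 comparisons, by -0.15 to 0.22. The unknown depth limits statements on values under 1 TPM, such as Cldn2 in anus.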
